A study of Mus musculus with 8 samples.

Results

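The mitochondrial carrier family, named Slc25, comprised 47 genes in these data. They are the protein-coding genes of GENCODE M21 whose symbol is Slc25a followed by a number and whose Ensembl identifier is a row of the count table, out of 35275 rows in all. The rule itself uses names only. RNA had been sequenced from the liver of 8 male mice of 9 weeks on a C57BL/6 background, 1 library per mouse, after food was withheld for 24 h. The 4 mice of the group Pcx_KO (Pcx L-/-) carried floxed Pcx alleles and the Albumin-Cre transgene, which removes exon 10 in hepatocytes and leaves the gene intact in the other cells of the liver. The 4 controls, labelled WT, were Pcx f/f littermates that carried the same floxed alleles without Cre. The floxed allele came from a C57BL/6NTac knockout-first line after Flpe recombination, in both groups.

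Carriers of this family sit in the inner mitochondrial membrane, with a few in the outer membrane or in peroxisomes, and exchange metabolites between the matrix and the cytosol. Most are built from 3 repeats of about equal length, each with a conserved signature in its first helix. In liver they carry the malate, aspartate, citrate and phosphate that gluconeogenesis, the malate-aspartate shuttle and fatty acid synthesis pass across the membrane, the ornithine and citrulline of the urea cycle, and the acylcarnitines of fatty acid oxidation. Pyruvate carboxylase, the product of Pcx, makes oxaloacetate inside the matrix, and oxaloacetate leaves mainly as malate or aspartate. The comparison thus describes the transcripts of these carriers when hepatocytes lack that enzyme during a fast.

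The signature is proline, any residue, aspartate or glutamate, any pair of residues, then lysine or arginine. In the coding sequences of GENCODE M21, 27 of 47 members held 3 copies of it, 12 held 2, 5 held 1 and 3 held none (Slc25a46, Slc25a51 and Slc25a53). The coding sequences ran from 265 to 677 codons, with a median of 318. Copies that lie within a single coding exon are shown for the members on which the comparison turns, as 6 codons with 4 codons on either side. Capitals mark the codons of the conserved proline, acidic and basic residues. All 3 copies are shown for Slc25a13, where each fell within 1 exon, and 1 copy for the other members. Positions are in GRCm38 (mm10), on the strand of the gene.
Slc25a13 copy 1 (chr6:6109287-6109328, minus strand): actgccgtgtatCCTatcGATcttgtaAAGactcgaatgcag
Slc25a13 copy 2 (chr6:6073483-6073524, minus strand): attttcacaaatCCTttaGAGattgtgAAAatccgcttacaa
Slc25a13 copy 3 (chr6:6042844-6042885, minus strand): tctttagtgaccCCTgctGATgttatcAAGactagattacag
Slc25a23 copy 1 (chr17:57053784-57053825, minus strand): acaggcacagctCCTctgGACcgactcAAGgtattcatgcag
Slc25a42 copy 1 (chr8:70191862-70191903, minus strand): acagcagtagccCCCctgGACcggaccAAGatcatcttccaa
Slc25a32 copy 1 (chr15:39112349-39112390, minus strand): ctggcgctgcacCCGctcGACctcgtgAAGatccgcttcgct
Slc25a20 copy 2 (chr9:108677633-108677674, plus strand): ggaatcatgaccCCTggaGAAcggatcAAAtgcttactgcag
Slc25a1 copy 1 (chr16:17927585-17927626, minus strand): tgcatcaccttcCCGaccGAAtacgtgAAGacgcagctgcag
Slc25a39 copy 2 (chr11:102404573-102404614, minus strand): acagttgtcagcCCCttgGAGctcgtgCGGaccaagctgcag
Slc25a22 copy 1 (chr7:141433935-141433976, minus strand): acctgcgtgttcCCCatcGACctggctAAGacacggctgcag
Slc25a17 copy 1 (chr15:81344102-81344143, minus strand): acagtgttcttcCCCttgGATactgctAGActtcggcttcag
Slc25a33 copy 1 (chr4:149762483-149762524, minus strand): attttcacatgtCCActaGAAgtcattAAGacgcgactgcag
The basic codon was AAG or AAA, both for lysine, in 10 of these 12 stretches, and CGG or AGA, both for arginine, in those of Slc25a39 and Slc25a17. This tally covers the copies shown and not the whole genes. Copies 2 and 3 of Slc25a42 have AGA and CGG, and copy 3 of Slc25a39 has AAG.

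Reads counted on genes ranged from 12016242 to 20023108 per library. Counts were normalized by edgeR's TMM factors and scaled to the geometric mean of the effective library sizes, and all normalized counts below are on that scale, on which the genotypes were compared. The deleted gene, Pcx (chr19:4510472-4621752), checked the labels. It had 758, 556, 678 and 732 normalized counts in Pcx_KO replicates 1 to 4, and 19802, 14371, 19513 and 22059 in WT replicates 1 to 4. The log2 fold change was -4.80 (SE 0.19, adjusted p = 3.7e-07), and the mean in Pcx_KO was 3.60% of that in WT. Pcx_KO replicate 1 stood apart from the other 3: it lay between them and WT for many members, and the summed normalized counts of 7 red blood cell genes were 69347 in it, 6244 to 15787 in the other Pcx_KO libraries and 4750 to 16721 in WT. It was also the only Pcx_KO mouse with a number in the 500 series, to which WT replicates 1 and 2 belong as well. WT replicate 4 stood apart from the other controls as well. Its Spearman correlations with them were 0.976 to 0.983, as were those of Pcx_KO replicate 1 with the other Pcx_KO mice. It also had the lowest library total and TMM factor (0.833). Leaving out WT replicate 4 gave 3672 genes called in all, and leaving out Pcx_KO replicate 1 gave 4602. The counts of the carriers and of the related lists are given with and without Pcx_KO replicate 1. For many members that choice widens the difference, since they leave out the Pcx_KO mouse nearest to WT. Without that mouse the 500 series holds controls only, while WT keeps mice in and outside it. Genotype and number series are then partly confounded in every value given without Pcx_KO replicate 1. The part of the series in those values was not tested. Of the 6 hepatocyte markers, 2 (Apoa1 and Cyp3a11) were lower in Pcx_KO by edgeR (33.3%, against 13.5% of all genes). DESeq2 called 3 lower, and without Pcx_KO replicate 1 edgeR called 5, against 17.8% of all genes. The summed normalized counts of all 6 were 822888 to 1240041 in Pcx_KO and 1419594 to 1709007 in WT, without overlap. Most of that sum was Alb (690172 to 1019220 in Pcx_KO), which did not pass by edgeR (adjusted p = 0.0532). Of 8 macrophage markers 1 (Cd68) was higher (12.5%, against 14.1% of all genes). Of 5 tested cholangiocyte markers 1 (Sox9) was lower (20%, against 13.5%). None of the 7 endothelial, 7 stellate, 5 tested red blood cell and 4 tested lymphocyte genes passed in edgeR's test. Without Pcx_KO replicate 1 edgeR called 1 of the 5 red blood cell genes lower, against 17.8% of all genes, and none in the endothelial, stellate and lymphocyte lists. Of the 5 adipose and 6 muscle genes 1 each had enough reads to test, and neither passed. Of the lists with no call, 2 endothelial genes had an unadjusted p under 0.05 by edgeR, the others had 0 such genes, and DESeq2 called 0 in each. In bulk liver, fewer cells of a type cannot be told apart from less RNA per cell, and the part of these markers in the results below was not tested.

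Of the 47 carriers, 42 had enough reads to test, and 12 passed edgeR's quasi-likelihood test at an adjusted p under 0.05, taken over all 13168 genes tested. That is 28.6% of the tested carriers, against 27.6% of all genes tested. Slc25a17, Slc25a22, Slc25a39 and Slc25a33 were higher in Pcx_KO (4 members, or 9.52%, against 14.1% of all genes). Slc25a23, Slc25a51, Slc25a32, Slc25a13, Slc25a20, Slc25a42, Slc25a46 and Slc25a1 were lower (8 members, or 19.0%, against 13.5%). The median log2 fold change of the tested carriers was -0.04 and that of all tested genes -0.01, and the median absolute change was 0.30 and 0.29. The share of carriers that passed was thus near that of the genome, and only 1 of the 12 (Slc25a23) changed by 2-fold or more. The normalized counts of both genotypes were fully separated for 13 carriers (31.0%, against 27.6% of all genes), which include 10 of the 12 that passed, Slc25a51 and Slc25a1 being the exceptions, and 3 that did not (Slc25a16, Slc25a26 and Slc25a14). Without Pcx_KO replicate 1 there were 19 of 42, against 41.4% of all genes, and the 6 gained were Slc25a1, Slc25a10, Slc25a11, Slc25a24, Slc25a48 and Slc25a51. Leaving out a mouse can add separated genes but cannot remove any, so a rise was the only change possible. DESeq2's Wald test on all 8 mice called 14 carriers, 4 higher and 10 lower, with Slc25a16 and Slc25a48 added.

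The split between directions depended on the scaling. TMM factors were 0.970 to 1.16 in Pcx_KO and 0.833 to 0.942 in WT, so that scaling by the library total alone moved the median over all genes to 0.28 on the log2 scale and that over the carriers to 0.24. On that scale 12 carriers were higher, against 29.7% of all genes, and 6 were lower, against 6.61%. Without Pcx_KO replicate 1, under TMM, 4 carriers were higher, against 16.7% of all 13330 genes tested, and 13 were lower, against 17.8%. The 5 added to the lower side were Slc25a10, Slc25a11, Slc25a16, Slc25a37 and Slc25a48, while Slc25a44 took the place of Slc25a33 among the higher ones.

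**Figure D1:**
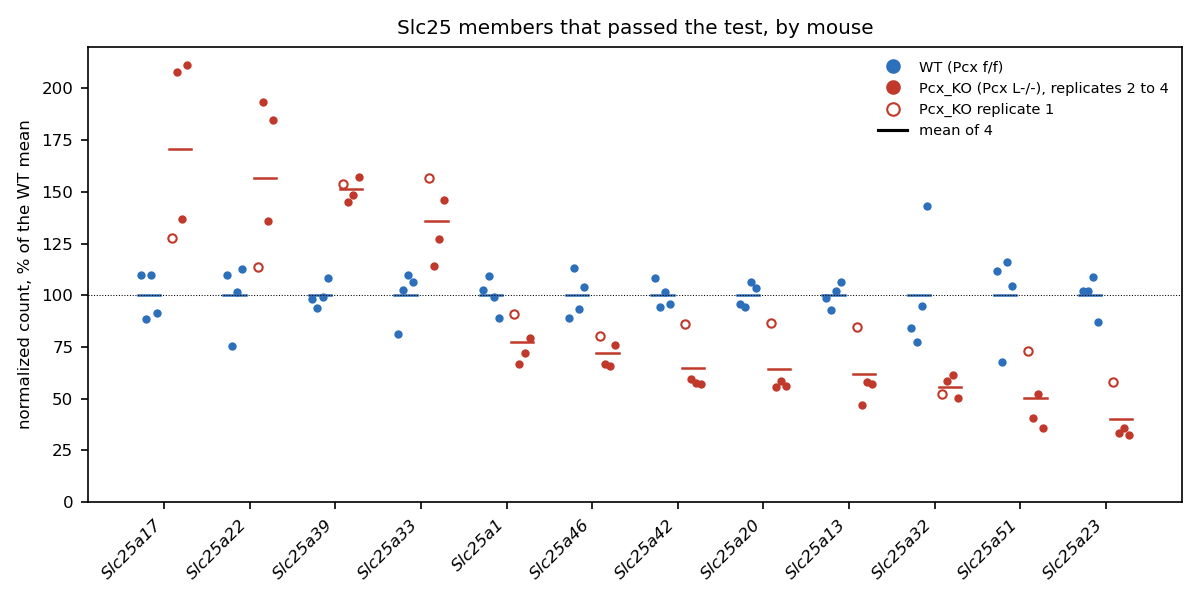
Normalized counts of the 12 carriers that passed the test, each mouse as a point and as a percentage of the WT mean (y axis), with carriers ordered along the x axis by log2 fold change; short lines are means of 4 mice and the open circle is Pcx_KO replicate 1. Pcx_KO replicate 1 is the highest Pcx_KO mouse for 7 of the 8 carriers that were lower, and the counts of Slc25a23 in Pcx_KO lie far below every control.

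The carriers of adenine nucleotides and phosphate supply oxidative phosphorylation and set the adenine nucleotide pool of the matrix. Among 6 tested members 1 was lower (16.7%, against 13.5% of all genes), with a median log2 fold change of 0.04. None was higher (against 14.1% of all genes), with 0 also by DESeq2 and at an unadjusted p under 0.05 by edgeR. The groups by substrate hold few members, and none was tested as a set. Slc25a23 (chr17:57043711-57059863), a calcium-regulated exchanger of ATP-Mg for phosphate, showed the largest change among the tested carriers. Its normalized counts were 2439, 1403, 1507 and 1374 in Pcx_KO replicates 1 to 4, and 4287, 4302, 4576 and 3659 in WT replicates 1 to 4. All 4 Pcx_KO mice were below all 4 controls, and the log2 fold change was -1.32 (SE 0.19, adjusted p = 0.00109), which became -1.56 (adjusted p = 8.71e-06) without Pcx_KO replicate 1.

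Its close relative Slc25a25 had 3854, 1663, 4755 and 3644 in Pcx_KO and 4822, 3140, 5201 and 5796 in WT. These ranges overlapped, and the log2 fold change of -0.45 (95% interval -1.14 to 0.25) did not pass. Slc25a24, the third of these ATP-Mg carriers, was rare, at 24.5 to 52.6 in Pcx_KO and 17.0 to 43.7 in WT (log2 fold change 0.44, 95% interval -0.35 to 1.24). Intervals here and below use the t distribution with 6 degrees of freedom and the standard error implied by the F statistic, and are approximate.

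Slc25a5, the main ADP/ATP translocase of liver, had 9160, 7307, 7422 and 7977 in Pcx_KO and 8715, 8832, 8746 and 6300 in WT. Slc25a3, which imports phosphate, had 7132, 6407, 6391 and 6853 in Pcx_KO and 6571, 6473, 6635 and 5029 in WT. For both, WT replicate 4 was lower than any other mouse, and the genotypes overlapped. The log2 fold changes were -0.03 for Slc25a5 (95% interval -0.39 to 0.33, with the sign changing under other scalings) and 0.12 for Slc25a3 (-0.20 to 0.43). Slc25a4, the translocase of heart and muscle, had 69.8 to 117 in Pcx_KO and 52.6 to 119 in WT (log2 fold change 0.13, 95% interval -0.47 to 0.73). Slc25a41 and Slc25a54 had no read in any library and Slc25a31, the translocase of testis, had 3 in all, so these members were not tested.

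**Figure D2:**
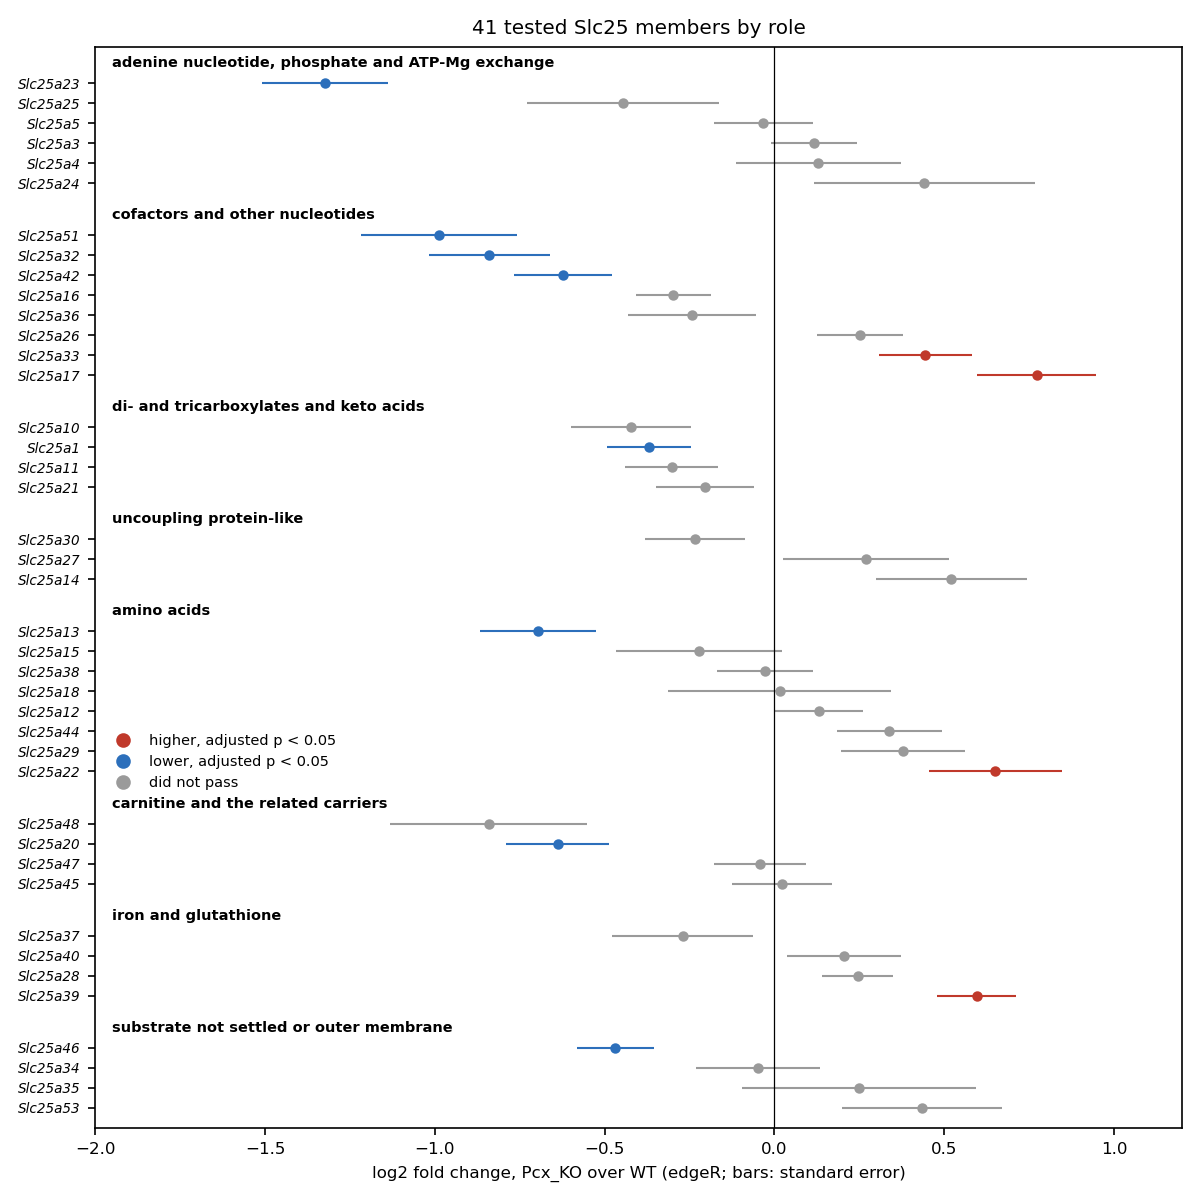
Log2 fold changes of 41 tested carriers (x axis, Pcx_KO over WT, from edgeR under TMM scaling) with standard errors as bars, grouped by the kind of substrate; red and blue points passed at an adjusted p under 0.05 and grey points did not. The cofactor carriers range from -0.99 to 0.77, while the 4 carriers of di- and tricarboxylates all lie below 0.

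The carriers of cofactors and of nucleotides other than ATP held calls in both directions. Of 9 tested members 3 were lower (33.3%, against 13.5% of all genes) and 2 were higher (22.2%, against 14.1%), with a median of -0.24. Slc25a51 (chr4:45395923-45408766), the carrier of NAD+ into mitochondria, had 2347, 1309, 1684 and 1161 in Pcx_KO and 3607, 2176, 3743 and 3364 in WT. Pcx_KO replicate 1 lay above WT replicate 2, the lowest control, so the groups overlapped. It fell by 0.99 on the log2 scale (SE 0.23, adjusted p = 0.0101). Slc25a32 (chr15:39091231-39112716), which carries folate and has been tied to mitochondrial FAD, had 343, 382, 402 and 329 in Pcx_KO and 553, 507, 621 and 939 in WT. Every Pcx_KO mouse was below every control (log2 fold change -0.84, SE 0.18, adjusted p = 0.00668), and WT replicate 4 was the highest.

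Slc25a42 (chr8:70184340-70212305) imports coenzyme A in exchange for adenine nucleotides. It had 2000, 1381, 1333 and 1325 in Pcx_KO and 2514, 2193, 2359 and 2220 in WT, without overlap, and Pcx_KO replicate 1 was nearest to the controls. It fell by 0.62 on the log2 scale (SE 0.14, adjusted p = 0.00991). Slc25a16, a relative also linked to coenzyme A, had 1697, 1304, 1491 and 1319 in Pcx_KO and 1773, 1872, 1738 and 1757 in WT. These did not overlap either, but the log2 fold change of -0.30 missed the threshold (adjusted p = 0.0668), which it passed by DESeq2 (adjusted p = 0.0348) and without Pcx_KO replicate 1 (-0.38, adjusted p = 0.0116).

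Slc25a17 (chr15:81318911-81360812), which carries coenzyme A, FAD and NAD+ across the membrane of peroxisomes rather than of mitochondria, was higher. It had 913, 1485, 976 and 1507 in Pcx_KO and 786, 632, 786 and 653 in WT, without overlap. The log2 fold change was 0.77 (SE 0.18, adjusted p = 0.00916), the largest rise in the family, with replicates 2 and 4 well above replicates 1 and 3. Slc25a33 (chr4:149744036-149774277), a pyrimidine nucleotide carrier, had 390, 284, 317 and 363 in Pcx_KO and 202, 256, 273 and 265 in WT. The lowest Pcx_KO mouse was just above the highest control, and the log2 fold change was 0.44 (SE 0.14, adjusted p = 0.0338). Leaving out WT replicate 1, 2 or 3 or Pcx_KO replicate 1, 3 or 4 ended this call (adjusted p of 0.0504 to 0.102), as did a replicate block (0.0736). An antisense gene on the other strand overlaps 14.9% of the exonic bases of Slc25a33, and how the counting treated strand is not stated. That gene had 41 reads in all, against 2426 on Slc25a33.

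Of the other members of this group, Slc25a36, the second pyrimidine nucleotide carrier, had 60.4 to 74.0 in Pcx_KO and 66.2 to 102 in WT. Slc25a26, which imports S-adenosylmethionine, had 144 to 172 and 119 to 135, and neither passed.

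The carriers of di- and tricarboxylates link the citric acid cycle with the cytosol. Under TMM scaling all 4 were below 0, with a median log2 fold change of -0.34, and 1 passed (25% lower, against 13.5% of all genes). On library totals alone Slc25a21 was above 0 (0.065), and Slc25a10, Slc25a1 and Slc25a11 were at -0.16, -0.10 and -0.035. Slc25a1 (chr16:17925223-17928219), the citrate carrier that feeds cytosolic acetyl-CoA, had 2416, 1771, 1915 and 2102 in Pcx_KO and 2721, 2890, 2624 and 2362 in WT. Only Pcx_KO replicate 1 reached the lowest control. The log2 fold change was -0.37 (SE 0.12, adjusted p = 0.046), a call that was lost when Pcx_KO replicate 2, 3 or 4 or WT replicate 1, 2 or 3 was left out (adjusted p of 0.0924 to 0.14). It passed in 6 of the 19 alternative fits, DESeq2 among them (adjusted p = 0.0163). It did not pass on library totals alone (-0.10, adjusted p = 0.556), in the limma fits on FPKM (0.576 and 0.577), or with upper quartile factors (0.0748), no filter on low counts (0.082), the mouse number series as a covariate (0.0519) or a replicate block (0.0864).

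Slc25a10, the dicarboxylate carrier that exports malate in exchange for phosphate, had 5693, 3218, 3740 and 3314 in Pcx_KO and 5690, 5366, 5219 and 5130 in WT. Replicate 1 of Pcx_KO was level with the highest control while the other 3 were below all controls. With all mice the log2 fold change was -0.42 (SE 0.18, adjusted p = 0.0988), and without Pcx_KO replicate 1 it was -0.65 (adjusted p = 0.000943). Slc25a11, the oxoglutarate carrier of the malate-aspartate shuttle, had 1664, 1087, 1206 and 1169 in Pcx_KO and 1635, 1689, 1473 and 1521 in WT. It showed the same arrangement, with a log2 fold change of -0.30 (adjusted p = 0.127) that became -0.45 (adjusted p = 0.00508) without Pcx_KO replicate 1. Slc25a10 and Slc25a11 each passed in 1 of the 19 alternative fits, the one without that mouse. Since that mouse lay level with or among the controls, leaving it out enlarges both differences by construction. Slc25a21, the oxoadipate carrier, had 181 to 277 and 231 to 273 and did not pass.

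Among the amino acid carriers 1 of 8 tested members was lower (12.5%, against 13.5% of all genes) and 1 was higher (12.5%, against 14.1%). The other 6 did not pass, and the median was 0.07. Slc25a13 (chr6:6041218-6217173) is citrin, the aspartate/glutamate carrier of liver, which exports aspartate to the cytosol. It had 5949, 3313, 4087 and 3996 in Pcx_KO and 6921, 6521, 7167 and 7478 in WT. The groups did not overlap, Pcx_KO replicate 1 was the nearest to WT, and the log2 fold change was -0.70 (SE 0.17, adjusted p = 0.0125). Slc25a12, the aspartate/glutamate carrier of muscle and brain, had 540 to 623 in Pcx_KO and 432 to 645 in WT.

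Slc25a22 (chr7:141429744-141437892), a glutamate carrier, was higher. Its normalized counts were 8302, 14096, 9907 and 13454 in Pcx_KO and 8010, 5519, 7412 and 8223 in WT. Replicate 1 of Pcx_KO was barely above the highest control, and replicates 2 and 4 were the farthest from the controls. The log2 fold change was 0.65 (SE 0.20, adjusted p = 0.0299). This call was lost with a replicate block (adjusted p = 0.0578) and without Pcx_KO replicate 2 or 4 or WT replicate 1, 2 or 3 (adjusted p of 0.0533 to 0.0983). The second glutamate carrier, Slc25a18, had only 10.1 to 16.9 in Pcx_KO and 10.0 to 18.7 in WT.

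Slc25a15, the ornithine/citrulline carrier of the urea cycle, had 11632, 8014, 10007 and 9324 in Pcx_KO and 10359, 7279, 9822 and 18010 in WT. WT replicate 4 was the highest and WT replicate 2 the lowest of all 8 mice, and the log2 fold change was -0.22 (95% interval -0.82 to 0.38). Without WT replicate 4 it was 0.09. Slc25a44, a carrier of branched-chain amino acids, had 1115, 1617, 1349 and 1500 in Pcx_KO and 1002, 923, 1085 and 1414 in WT, where replicate 4 reached the Pcx_KO range. Its log2 fold change of 0.34 (adjusted p = 0.13) passed without Pcx_KO replicate 1 (0.43, adjusted p = 0.0374) and without WT replicate 4 (adjusted p = 0.0257). Slc25a38, tied to glycine import, had 400.5 to 522 and 348 to 545, and did not pass. Slc25a2, an ornithine carrier, had 7 reads in all and was not tested.

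In the group of carnitine and related carriers 1 of 4 was lower (25%, against 13.5% of all genes), with a median of -0.34. Slc25a20 (chr9:108662088-108684641), which exchanges acylcarnitines for carnitine in fatty acid oxidation, had 2715, 1752, 1842 and 1761 in Pcx_KO and 3011, 2966, 3338 and 3247 in WT. The groups did not overlap, and Pcx_KO replicate 1 lay much nearer to WT than the other 3. The fitted log2 fold change was -0.64 (SE 0.15, adjusted p = 0.0107). Slc25a48, whose product has been linked to choline, had 536, 166, 278 and 231 in Pcx_KO and 499, 549, 475 and 648 in WT. Here Pcx_KO replicate 1 fell among the controls, and the log2 fold change of -0.84 (SE 0.29) had an adjusted p of 0.0506. It passed in 7 of the 19 alternative fits, among them DESeq2 on all 8 mice (adjusted p = 0.0193), and without that mouse it was -1.27 (adjusted p = 0.000323).

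Slc25a47, a carrier found almost only in liver, had 8858, 9808, 10556 and 10323 in Pcx_KO and 9753, 9278, 12203 and 9494 in WT. These overlapped, and the log2 fold change was -0.04 (95% interval -0.37 to 0.29), with the sign changing under other scalings. In the GENCODE annotation the gene span of Slc25a47 begins 162 bp from that of Slc25a29, a carrier of basic amino acids on the other strand of chromosome 12. Slc25a29 had 74.4 to 109 in Pcx_KO and 63.9 to 79.8 in WT (log2 fold change 0.38, 95% interval -0.07 to 0.83). Slc25a45, on chromosome 19 and 1256056 bp from the deleted gene, had 263 to 379 in Pcx_KO and 246 to 331 in WT (log2 fold change 0.02, 95% interval -0.34 to 0.38).

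Among the carriers of iron and glutathione 1 of 4 was higher (25%, against 14.1% of all genes), with a median of 0.22. Slc25a39 (chr11:102402985-102407946), which imports glutathione into mitochondria, had 13343, 12594, 12878 and 13654 in Pcx_KO and 8540, 8159, 8616 and 9392 in WT. Each genotype was tightly grouped, the lowest Pcx_KO mouse was far above the highest control, and Pcx_KO replicate 1 lay with the other 3. It rose by 0.60 on the log2 scale (SE 0.12, adjusted p = 0.00452). Its paralog Slc25a40 had 90.2 to 108 and 62.8 to 94.6 and did not pass. Slc25a37, mitoferrin 1, which imports iron and is abundant in erythroid cells, had 982, 571, 574 and 529 in Pcx_KO and 835, 895, 893 and 572 in WT. Its highest value was in Pcx_KO replicate 1, the library with the high red blood cell counts given above, and the part of those cells in this value was not tested. The log2 fold change was -0.27 (adjusted p = 0.367), and -0.52 (adjusted p = 0.0213) without that mouse. Slc25a37 passed in 1 of the 19 alternative fits, that one. Slc25a28, mitoferrin 2, had 447 to 500.1 in Pcx_KO and 363 to 455 in WT (log2 fold change 0.25, adjusted p = 0.106).

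Slc25a46 (chr18:31556111-31609911), an outer membrane protein of the family that acts in mitochondrial fusion and fission, had 623, 518, 508 and 587 in Pcx_KO and 689, 876, 723 and 804 in WT. There was no overlap, and the log2 fold change was -0.47 (SE 0.11, adjusted p = 0.0123), but on library totals alone it was -0.19 (adjusted p = 0.235), and the limma fits on FPKM did not call it either (0.261 and 0.264). Of the members with no settled substrate, Slc25a34 had 198 to 304 in Pcx_KO and 188 to 326 in WT. Slc25a53 had 43.5 to 51.6 and 23.7 to 46.6, and Slc25a35 had 15.3 to 33.7 and 14.0 to 31.4. None of these 3 passed, and Slc25a43 had 29 reads in all and was not tested. A gene on the other strand, with 4 reads in all, overlaps 31.3% of the exonic bases of Slc25a35. More reads fell on the opposite-strand genes Rnf167, which overlaps 8.92% of Slc25a11 (5398 reads, against 11537 on the carrier), Lrig1, which overlaps 3.00% of Slc25a26 (2946 against 1179), and Atp6v1e1, which overlaps 1.68% of Slc25a18 (12072 against 115). With strand use unstated, the values of these carriers are uncertain. Of the relatives of the uncoupling proteins, Slc25a14 had 38.1 to 45.8 and 22.6 to 37.9, Slc25a27 had 52.6 to 105 and 43.3 to 69.9, and Slc25a30 had 163 to 206 and 180 to 247. None of these 3 passed by edgeR or DESeq2, 1 (Slc25a14) had an unadjusted p under 0.05, and their median log2 fold change was 0.27.

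Levels of different carriers can be compared only per length, for which the FPKM values that the authors deposited were used. FPKM are scaled to the library total, so they are read here within a genotype. Averaged over the 8 mice, 7 members exceeded 100 FPKM, 13 lay between 10 and 100, 17 between 1 and 10, and 10 at 1 or less. In WT the order was led by Slc25a5 at 353 ± 69.5 FPKM (SD, n = 4) and Slc25a47 at 345 ± 52.9, which changed places between mice. Slc25a39 followed at 274 ± 4.36, below both in mean but with a range (269 to 278) that reached above the lowest value of Slc25a5, that of WT replicate 4. The next were Slc25a15 at 173 ± 59.0, Slc25a10 at 141 ± 12.8, Slc25a13 at 120 ± 3.94 and Slc25a22 at 119 ± 17.5, and each overlapped its neighbour in this order. In Pcx_KO the first was Slc25a39, at 506 ± 38.5 FPKM, above every other carrier in all 4 mice. Slc25a5 (416 ± 12.5) and Slc25a47 (409 ± 60.7) followed and overlapped, and Slc25a22 was next at 231 ± 68.8.

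The share of the summed carrier FPKM that came from Slc25a39 was 12.3% ± 0.645 in WT and 19.1% ± 0.719 in Pcx_KO (SD, n = 4). The share of Slc25a22 was 5.32% ± 0.738 in WT and 8.66% ± 2.43 in Pcx_KO, and that of Slc25a13 was 5.38% ± 0.198 and 3.37% ± 0.681. The 10 most abundant members held 80.0% ± 0.275 of the sum in WT and 83.7% ± 0.886 in Pcx_KO. The summed FPKM was 2233 ± 137 in WT and 2651 ± 111 in Pcx_KO, a ratio of 1.19. The carriers' share of the counted reads, which is not divided by length, was 0.511% ± 0.0274 in WT and 0.587% ± 0.0230 in Pcx_KO. The summed TMM-normalized counts, not divided by length either, overlapped, at 86590 to 101248 in WT and 84712 to 97777 in Pcx_KO. Their ratio, Pcx_KO over WT, was 0.943. The direction of the sum therefore depended on the scaling, and it was not tested. These are descriptions, since a share falls when another member rises.

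**Figure D3:**
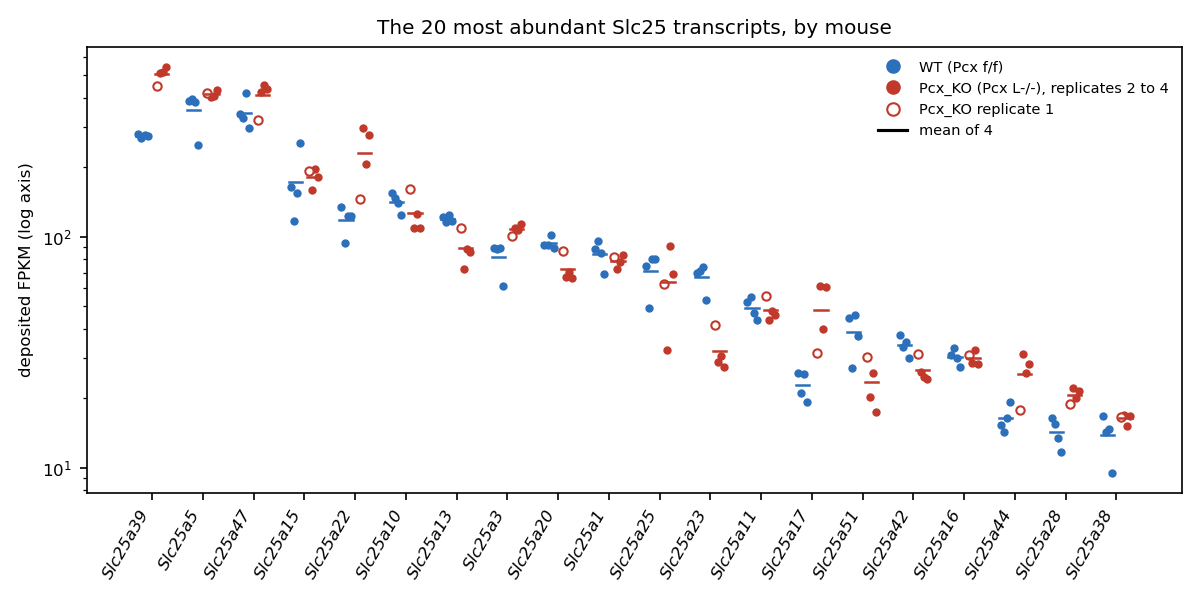
Deposited FPKM (y axis, log scale) of the 20 most abundant carriers along the x axis, each mouse as a point with lines at the means of 4 mice. In WT Slc25a5 and Slc25a47 lead, and in Pcx_KO Slc25a39 leads the order in every mouse at 452 to 542 FPKM.

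Ratios within a library do not depend on its scaling, and 10 pairs of carriers with a like substrate or sequence were compared in that way, by an exact two-sided permutation test over the 8 mice on the log2 ratio of FPKM, adjusted over the 10 pairs. No pair passed at an adjusted p under 0.05, and 1 pair had an unadjusted p under 0.05. With 4 mice against 4 the smallest p the test can give is 0.0286, and the adjusted p could fall under 0.05 only if at least 6 of the 10 pairs had reached it, so no pair could have passed alone. That value was reached by Slc25a13 over Slc25a12, citrin over its muscle and brain counterpart. Their log2 ratio was 4.28, 3.64, 3.86 and 3.84 in Pcx_KO and 4.89, 4.58, 5.08 and 4.56 in WT, a difference of -0.87 without overlap (adjusted p = 0.122). In FPKM, Slc25a13 exceeded Slc25a12 by 27.4-fold in WT, taken from the mean log2 ratio, and by less in Pcx_KO (mean log2 ratio 4.78 in WT and 3.91 in Pcx_KO).

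For Slc25a25 over Slc25a23, both ATP-Mg carriers, the log2 ratio was 0.59, 0.18, 1.59 and 1.34 in Pcx_KO and 0.10, -0.52, 0.11 and 0.59 in WT. The difference of 0.85 (exact permutation p = 0.0857, adjusted p = 0.122) came with overlap. For Slc25a47 over Slc25a20 it was 1.88, 2.66, 2.69 and 2.73 in Pcx_KO and 1.87, 1.82, 2.05 and 1.72 in WT, where only Pcx_KO replicate 1 fell within the controls (difference 0.63, exact permutation p = 0.0571, adjusted p = 0.122). The difference was -0.34 for Slc25a42 over Slc25a16 (exact permutation p = 0.0571), 0.67 for Slc25a33 over Slc25a36, -0.54 for Slc25a37 over Slc25a28 and -0.14 for Slc25a10 over Slc25a11 (each exact permutation p = 0.0857). For Slc25a39 over Slc25a40, Slc25a22 over Slc25a18 and Slc25a4 over Slc25a5 it was 0.36, 0.61 and 0.20, with exact permutation p of 0.143, 0.2 and 0.486. The coding sequences of the pairs were identical at 62.3% to 78.7% of aligned bases, and their longest identical run was 11 to 23 bases, so no pair was nearly identical in its coding part.

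**Figure D4:**
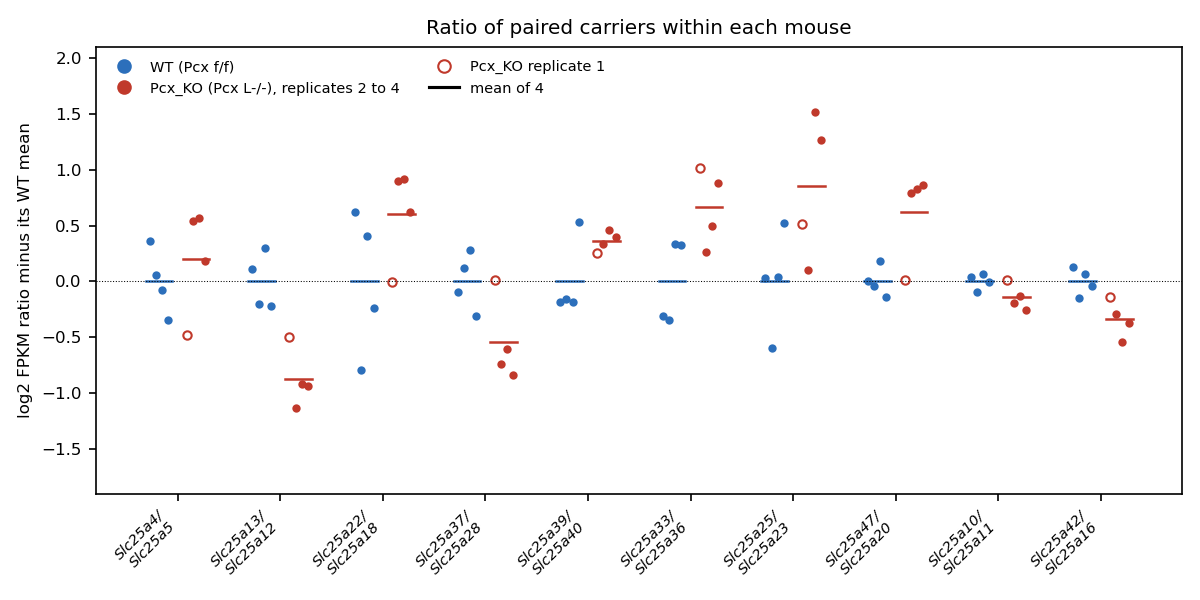
Log2 ratio of FPKM for 10 pairs of carriers within each mouse, minus the WT mean of that pair (y axis), with pairs along the x axis and lines at the means of 4 mice. Slc25a13 over Slc25a12 is the only pair whose genotypes do not overlap, and Pcx_KO replicate 1 lies within the range of the controls in 7 of the 10 pairs.

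The proteins that work beside the carriers were counted in 4 lists, of which 53 of 56 genes were tested, 8 were higher (15.1%, against 14.1% of all genes) and 10 lower (18.9%, against 13.5%), with a median log2 fold change of -0.03. On library totals alone these counts were 18 and 6, and without Pcx_KO replicate 1 they were 8 and 18. In the import route, which carries newly made carriers through the outer membrane, past the small Tim chaperones and into the inner membrane, 4 of 13 (30.8%, against 14.1% of all genes) were higher and none lower by edgeR, with or without Pcx_KO replicate 1, with a median of 0.18 (0 lower also by DESeq2 and at an unadjusted p under 0.05). Timm10, one of those chaperones, had 471, 585, 461 and 607 in Pcx_KO and 286, 286, 261 and 175 in WT. The genotypes were widely separated, with a log2 fold change of 1.06 (SE 0.16, adjusted p = 0.00143). Tomm22, Tomm40 and Tomm20, parts of the outer membrane translocase, rose by 0.60, 0.55 and 0.41 on the log2 scale (adjusted p of 0.00598, 0.00408 and 0.0161), and Tomm20 did not pass without Pcx_KO replicate 4 or WT replicate 3 (adjusted p of 0.0579 to 0.0622).

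Of 17 partner enzymes, 3 were higher (17.6%, against 14.1% of all genes) and 5 lower (29.4%, against 13.5%), with a median of -0.45, and without Pcx_KO replicate 1 these were 3 and 11. Citrate synthase (Cs), which condenses oxaloacetate with acetyl-CoA in the matrix, had 2484, 4620, 3786 and 4225 in Pcx_KO and 1453, 1517, 1509 and 1741 in WT (log2 fold change 1.28, SE 0.18, adjusted p = 0.000999). The mitochondrial enzymes Pck2 and Mdh2 were higher as well, at 0.96 and 0.52 (adjusted p of 0.00881 and 0.00727). Their cytosolic counterparts Pck1, which makes phosphoenolpyruvate from oxaloacetate, and Mdh1, the cytosolic malate dehydrogenase, were lower, at -0.72 and -0.62 (adjusted p of 0.0195 and 0.0242). Otc, which makes the citrulline that Slc25a15 exports, had 2986, 1287, 1207 and 1316 in Pcx_KO and 5598, 4842, 5836 and 4477 in WT. It fell by 1.61 on the log2 scale (SE 0.27, adjusted p = 0.00237). Glud1 and Gls2, which act on the glutamate and glutamine of the matrix, were lower at -0.78 and -0.68 (adjusted p of 0.0085 and 0.0454). Cpt1a and Cpt2, the acyltransferases on either side of Slc25a20, had log2 fold changes of -0.15 (adjusted p = 0.606) and -0.41 (adjusted p = 0.0833). The calls of Pck1, Mdh1 and Gls2 were lost in some fits without 1 mouse: Pck1 without Pcx_KO replicate 2, 3 or 4 or WT replicate 3 (adjusted p of 0.0505 to 0.0779), Mdh1 without Pcx_KO replicate 2, 3 or 4 or WT replicate 1 or 3 (0.0584 to 0.0853). That of Gls2 was lost without any one mouse other than Pcx_KO replicate 1 (0.0507 to 0.136).

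**Figure D5:**
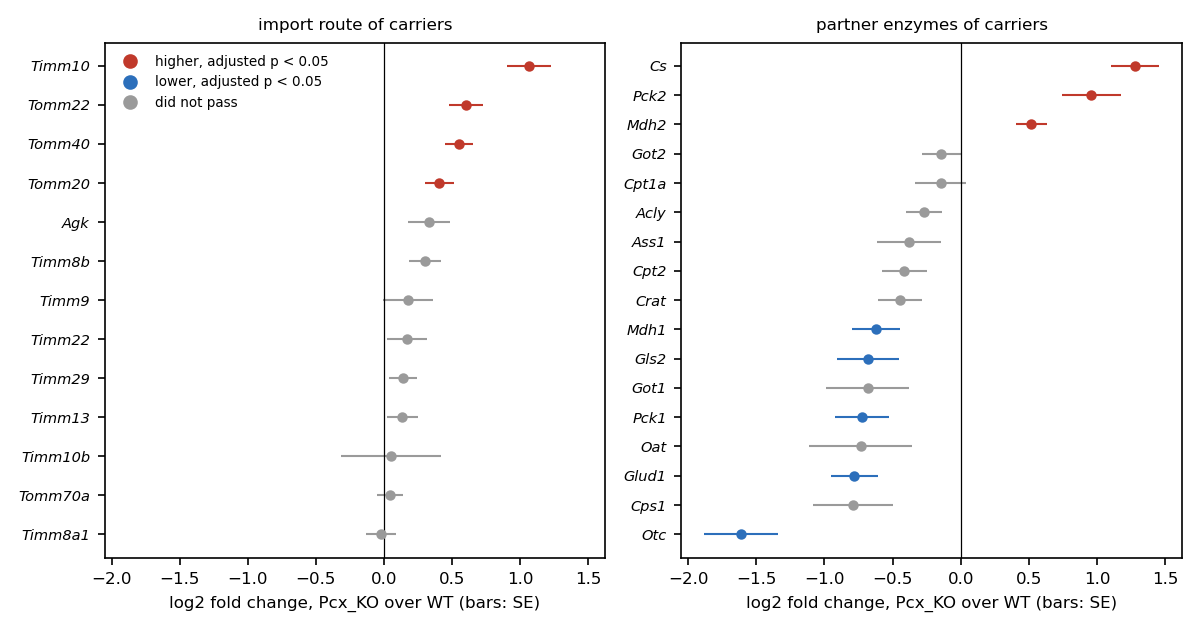
Log2 fold changes (x axis, Pcx_KO over WT, edgeR under TMM scaling) with standard errors as bars for 13 genes of the carrier import route and 17 enzymes that use or supply carrier substrates; red and blue points passed at an adjusted p under 0.05. On the left the 4 genes that passed lie above 0, and on the right Cs at 1.28 and Otc at -1.61 mark the ends of the range.

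Of 20 tested transporters of other families, 1 was higher (5%, against 14.1% of all genes) and 5 lower (25%, against 13.5%), with a median of -0.07, and without Pcx_KO replicate 1 these were 1 and 6. Mpc2 and Mpc1 together form the mitochondrial pyruvate carrier, which supplies pyruvate carboxylase. Mpc2 had 3140, 2182, 2265 and 2424 in Pcx_KO and 3182, 3704, 3666 and 3292 in WT, and fell by 0.47 on the log2 scale (SE 0.14, adjusted p = 0.0259), a call lost without Pcx_KO replicate 2, 3 or 4 or WT replicate 2 or 3 (adjusted p of 0.0584 to 0.0839). Mpc1, at 209, 147, 180 and 170 in Pcx_KO and 118, 154, 143 and 104 in WT, had a log2 fold change of 0.44 (SE 0.16, adjusted p = 0.0703). Abcb10, an inner membrane transporter of the heme pathway, Sfxn5 of the sideroflexins, and Slc8b1, the mitochondrial sodium/calcium exchanger, were lower at -0.67, -0.78 and -0.73 (adjusted p of 0.003, 0.00897 and 0.00877). Micu3, a regulator of calcium uptake, was lower at -0.68 (adjusted p = 0.0305), a call lost without Pcx_KO replicate 2, 3 or 4 or WT replicate 1, 2 or 3 (0.0538 to 0.0946). Vdac3, an outer membrane channel, had 1957, 2392, 2439 and 2576 in Pcx_KO and 1309, 1391, 1378 and 1439 in WT and was higher at 0.76 (SE 0.11, adjusted p = 0.0012). Of 3 tested proteins with the carrier fold but another name none passed by edgeR or DESeq2, 1 (Mtch1) had an unadjusted p under 0.05, and without Pcx_KO replicate 1 edgeR called 1 as lower. Ucp2, the uncoupling protein of that list, had 571 to 845 in Pcx_KO and 630 to 809.5 in WT (log2 fold change 0.03, 95% interval -0.31 to 0.37).

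Promoters were searched on both strands for TGATGNAA, the composite element of C/EBP and ATF factors, in the 300 bases from 250 before to 50 after each start in the RefSeq annotation of GRCm38.p6. It was in none of 46 windows of the 36 carriers with an entry, and in 3.97% of 32851 windows of all genes. That says only that these letters are not in these windows, some of which overlap. Slc25a32, Slc25a46 and Slc25a51, which passed the test, had no window and were not searched.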

How the data were processed

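Liver RNA of 4 Pcx_KO and 4 WT mice was sequenced by a company after TRIzol and column purification. The deposited raw counts per Ensembl gene were used as given. According to the submitters' processing notes the tools were STAR 2.5, HTSeq 0.6.1 and DESeq2 with the build mm10. Neither annotation release nor strand setting is given in the sources used here. The deposited FPKM equal the count divided by a gene length and the library total for 100% of 142384 values above 0 (relative tolerance 1e-06).

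The members and lists were chosen with earlier results of these data known. Symbols came from GENCODE M21 (34490 of 35275 rows). Genotypes were compared with edgeR 4.0.16 in R 4.3.3 (TMM, quasi-likelihood F test with genotype alone, Benjamini-Hochberg over 13168 genes that passed filterByExpr at its minimum count of 10 and total of 15). Standard errors are the log2 fold change over the square root of F. On simulated counts of 13013 genes, of which 196 were changed, edgeR recovered 67.3% of genes changed 2-fold and 99.0% of those changed 4-fold, with 8 false calls. In the data 27.6% of all genes passed, and the simulation held neither changes under 2-fold nor a deviating mouse. These rates are therefore not the power of this comparison. Each library was a separate mouse, and no pair of replicates agreed within counting noise. Library totals (12016242 to 20023108 reads) bound the precision for rare transcripts.

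Values are given in every library for each tested member past the threshold and for the 10 tested members with the highest mean FPKM, and for others that were chosen after their values were seen (Slc25a11, Slc25a16, Slc25a25, Slc25a37, Slc25a44, Slc25a48 and those of the related lists). The related lists name their members past the threshold, with Ucp2, Mpc1, Mpc2, Cpt1a and Cpt2. Signatures were counted on translated GENCODE M21 coding sequences in place of the RefSeq proteins that had been planned. The alternatives were 3 other scalings, 2 other filters, DESeq2 1.42.0 without and with apeglm 1.24.0, limma 3.58.1 on log2(FPKM + 1) and log2(FPKM + 0.1), the mouse number series as a covariate, a replicate block, and each mouse left out. Counts of separated carriers and of single lists without Pcx_KO replicate 1 were added after seeing the data. The marker Tf has no row under that symbol and was left out. The values of 1 tested member are not reported here, though it is included in the counts and medians.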

Additional observations from a re-analysis of the deposited data

Results flagged for a closer look

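For the 30 genes given in every library, 23 of them carriers, 60 groups of 4 mice were examined for a mouse far from the other 3 (Dixon's ratio at its 95% limit), and 8 were found, where chance gives about 1 in 20 groups. Pcx_KO replicate 1 was the high one in 5: Slc25a20 at 2715 normalized counts, against 1752 to 1842 in the other Pcx_KO mice, Slc25a23 at 2439, against 1374 to 1507, Slc25a42 at 2000.4, against 1325 to 1381, Slc25a37 at 982, against 529 to 574, and Otc at 2986, against 1207 to 1316. WT replicate 4 was the low one in 2: Slc25a5 at 6300 normalized counts, against 8715 to 8832, and Slc25a3 at 5029, against 6473 to 6635. WT replicate 3 was the high one for Slc25a47, at 12203, against 9278 to 9753. Some of the 30 genes, Slc25a37 and Otc among them, were chosen after their values were seen. The groups also share the same 8 mice, so the rate of 1 in 20 is only a rough guide.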

How the results depend on the processing

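All 12 carriers that passed kept their direction in the 19 alternative fits, and 8 of them passed in all 19. Of the 30 that did not pass, 12 changed sign in at least 1 fit. The number of carriers called higher was 4, but 12 with library totals alone, 12 with limma on log2(FPKM + 1), 12 on log2(FPKM + 0.1) and 2 with the replicate block. For the related lists these scalings gave 18, 17 and 17 higher in place of 8, and 6, 5 and 5 lower in place of 10. The same scalings reversed Slc25a5 (0.24, 0.26 and 0.26), Slc25a47 (0.25, 0.25 and 0.25), Slc25a15 (0.077, 0.13 and 0.13) and Cpt1a (0.14, 0.15 and 0.15). These scalings also reversed Slc25a21, Slc25a30, Slc25a34, Slc25a36 and Slc25a38 (0.065, 0.049, 0.22, 0.041 and 0.24 on library totals alone). Library totals alone differ from TMM in the shift of the median over all genes. The limma fits on FPKM also shift it, but differ in data scale and test as well. Upper quartile factors reversed Slc25a5 (0.0056), Slc25a47 (0.0025) and Slc25a38, and the mouse number series as covariate reversed Slc25a5 (0.028) and Slc25a38. The summed FPKM ratio was 1.09 without the member most abundant over all 8 mice (Slc25a39, which itself passed as higher) and 1.19 with it.

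With each mouse left out, carriers called ranged from 9 to 17, those higher from 2 to 5, those lower from 7 to 13, all genes called from 2109 to 4602, related genes called from 12 to 26, those higher from 7 to 8 and those lower from 5 to 18. The highest numbers of carriers called, carriers lower, all genes and related genes lower came without Pcx_KO replicate 1. Without Pcx_KO replicate 2 or 4, all genes called were 2295 and 2109. Of the 8 role groups 3 to 5 had a median below 0, with 5 without Pcx_KO replicate 1 or WT replicate 4. Leaving out 1 mouse reversed, within the ranges given, Slc25a4 (-0.039 to 0.30), Slc25a5 (-0.14 to 0.0071), Slc25a15 (-0.39 to 0.089), Slc25a45 (-0.096 to 0.092), Slc25a47 (-0.086 to 0.054), Ucp2 (-0.041 to 0.14) and Cpt1a (-0.27 to 0.034). Slc25a18 (-0.14 to 0.18), Slc25a34 (-0.18 to 0.11) and Slc25a38 (-0.14 to 0.060) were reversed in that way too. Pcx stayed between -4.91 and -4.71. For the pairs of carriers, the exact permutation test of 3 mice against 4 cannot go below p = 0.0571 and that within the replicate block not below 0.125, so both gave 0 pairs by construction and say nothing of stability.

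The replicate numbers did not pair the mice (correlations of same-numbered mice from -0.13 to 0.10). With the replicate block 10 carriers passed, 2 higher and 8 lower, and 2975 genes in all. The causes of these differences were not tested. Depth leaves 5 carriers with at most 29 reads untested.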
